A study of Rattus norvegicus with 46 samples.

Results

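The 10 genes described here are 4 ligands of the epidermal growth factor receptor, EGFR (Areg, Ereg, Hbegf and Tgfa), and 6 genes known from alveolar epithelium in transition after injury (Krt8, Krt18, Krt19, Cldn4, Lgals3 and Itgb6), followed in lungs of male Fischer 344 rats, which the study calls aged, after they had breathed crystalline silica dust. They were taken by gene name from lung tables of 30045 genes, each name stood on 1 row, and all 10 passed the filter on low counts at both times. The silica lungs came from rats that breathed Min-U-Sil 5, a fine quartz dust, at 15 mg/m3 for 6 hours on each of 5 days, and that were killed 1 day or 6 months later (6 samples at each time). The air lungs came from rats of the same strain and sex kept in filtered air on the same schedule (6 samples at 1 day and 4 at 6 months). The labels give no age at exposure, and the samples are whole lung, so that fewer cells of a type and less RNA per cell cannot be told apart in any of the values below.

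EGFR ligands are made as membrane proteins and are cut free by proteases such as Adam17; the released ligand binds EGFR on the same or a neighbouring cell and drives growth, migration and repair. In injured alveoli, type 2 cells, which make surfactant and renew the epithelium, pass through a stretched intermediate state on their way to flat type 1 cells, and this state is known in mouse for high Krt8, Cldn4 and Lgals3. Itgb6 is the β subunit of the integrin αvβ6, which is made by epithelium and releases active TGF-β from its latent complex.

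RNA sequencing gave 13.4 M to 24.6 M estimated counts per lung sample. Within the groups, 5 pairs of lung libraries differed in only 7.75% to 9.37% of the genes compared (chi-square test gene by gene), against 20.9% to 72.4% in the other 46 pairs; each of the 5 pairs was averaged and counted as 1 sample, which left 6 silica and 4 air samples at 1 day and 5 silica and 2 air samples at 6 months. Lung levels are given in CPM (counts scaled to library size) after TMM scaling, and blood levels in CPM without TMM scaling. A gene was called where edgeR's quasi-likelihood test gave a Benjamini-Hochberg adjusted p under 0.05 over all genes tested. The labels do not tie each sample to its own animal, so every p-value speaks only of the spread among the samples at hand, which may be technical. All 17 samples had high levels of type 2 markers (9 genes, Sftpc among them, summing to 14200 to 54500 CPM), as lung tissue does, whereas the 6 airway basal markers measured summed to 4.49 to 9.0 CPM and Krt5 had no count in 14 of 17 samples.

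At 1 day, 2 of the 10 genes were called between silica and air lungs: Lgals3 rose and Krt19 fell, beside 11.7% of 15724 tested genes that were called, 7.61% higher and 4.07% lower. At 6 months, 6 of the 10 rose in silica lungs (Areg, Ereg, Krt8, Krt18, Lgals3 and Itgb6) and none fell, beside 19.6% of 16265 tested genes that were called, 9.52% higher and 10.1% lower; the other 4 had adjusted p of 0.0539 (Cldn4), 0.0584 (Krt19), 0.155 (Hbegf) and 0.197 (Tgfa). The median log2 fold change over the 10 genes was 0.2 at 1 day and 1.04 at 6 months, and that over all tested genes was 0.001 and -0.002. Library values of silica lungs lay wholly above those of air lungs for 1 of the 10 genes at 1 day, beside 7.21% of tested genes, and for 9 of the 10 at 6 months, beside 20% of tested genes. None of the 10 lay wholly below air lungs at either time, beside 4.38% of tested genes at 1 day and 25.3% at 6 months.

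The calls at 6 months rest on few air samples. Leaving out either air sample left 0 of the 10 genes called by edgeR, with 4 and 7 of them at an unadjusted p under 0.05: 57 genes were called in all without the sample from libraries 19 and 24, and 1063 without that from libraries 20 and 25, where the remaining air sample was assumed to vary like the silica samples. Leaving out silica sample 32, 34 or 35 left 2, 1 and 1 genes called, and leaving out silica sample 33 gave 7; in each of these fits the log2 fold changes of all 10 genes kept their sign. The count also depends on how library pairs were averaged, a choice settled here after the fits had been seen: with the pair test over all genes, which was the planned form and averaged 1 pair, all 10 genes were called at 6 months (9 higher, and Tgfa lower), and with a continuity correction, which averaged 3 pairs, 8 were called. DESeq2 on the samples used here also called 8, all of them higher in silica lungs.

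**Figure D1:**
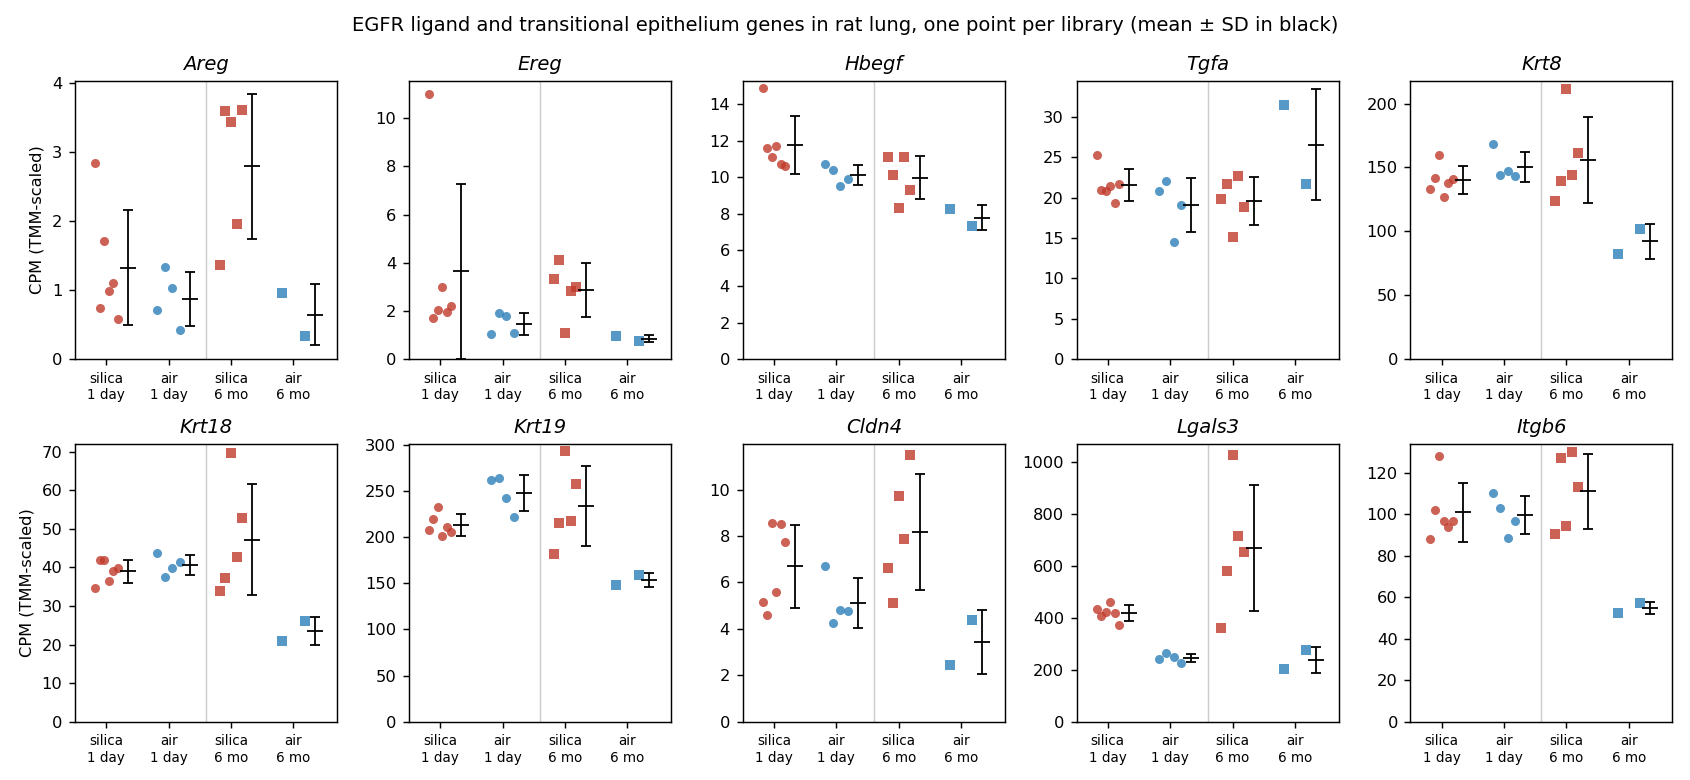
Levels of the 10 genes in CPM after TMM scaling, on a linear axis from 0, with 1 point per sample (6 silica and 4 air samples at 1 day, circles; 5 silica and 2 air samples at 6 months, squares) and mean ± SD in black. In 9 of 10 panels the 6-month silica samples lie above both 6-month air samples, Tgfa being the exception.

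Areg, which codes for amphiregulin, a ligand made by epithelium and by several immune cells, was higher in silica than in air lungs at 6 months. The 5 silica lungs of 6 months had 1.37, 3.59, 3.44, 1.96 and 3.61 CPM, and the 2 air lungs had 0.957 and 0.327 CPM. The groups did not overlap, though these levels rest on 24 to 87 counts in silica samples and 7 to 16 in air samples. The log2 fold change was 2.17 ± 0.58 (SE, n = 5 and 2, edgeR adjusted p = 0.0378), and it was 3.11 without the air sample of libraries 19 and 24 and 1.6 without that of libraries 20 and 25, neither of them called. At 1 day, Areg had a lowest, median and highest level of 0.582, 1.04 and 2.84 CPM in silica lungs, against 0.705, 1.33, 1.03 and 0.424 CPM in air lungs. Those groups overlapped, and the log2 fold change of 0.61 ± 0.45 was not called (edgeR adjusted p = 0.468). The difference between the silica effects at 6 months and 1 day, 1.54 on the log2 scale, was not called either (edgeR adjusted p = 0.16). The promoter of Areg is shown because it held matches to 2 of the 4 motifs searched. Its 250 bases before the RefSeq start site (GRCr8, chr14:17265642-17265891, minus strand, read towards the gene) carried a full cyclic AMP response element, TGACGTCA, at position -91 from the start and an NF-kB pattern at -78, in capitals below.

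Areg: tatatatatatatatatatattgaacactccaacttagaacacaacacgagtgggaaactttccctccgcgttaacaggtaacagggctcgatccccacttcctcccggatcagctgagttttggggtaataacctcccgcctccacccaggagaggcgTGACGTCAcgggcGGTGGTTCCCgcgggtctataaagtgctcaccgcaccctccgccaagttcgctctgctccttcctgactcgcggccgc

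Ereg codes for epiregulin, a ligand of EGFR and of the related receptor ErbB4. At 6 months the silica lungs had 3.32, 4.13, 1.07, 2.84 and 2.98 CPM, and the air lungs had 0.957 and 0.748 CPM. Silica sample 33 was the low one and stood just above the higher air sample. Ereg rose by a log2 fold change of 1.78 ± 0.51 (SE, n = 5 and 2, edgeR adjusted p = 0.0468), and with all 4 lung groups in 1 fit the adjusted p was 0.0715. At 1 day its lowest, median and highest levels were 1.69, 2.12 and 11 CPM in silica lungs, against 1.06, 1.9, 1.77 and 1.09 CPM in air lungs. The value of 11 CPM came from silica sample 10 alone. The 1-day log2 fold change was 1.33 ± 0.62 (edgeR adjusted p = 0.223) and was 0.58 without that sample.

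Silica sample 10 was also the highest of its group for the other ligands. It had 14.9 CPM of Hbegf, 2.84 CPM of Areg and 25.3 CPM of Tgfa, and the summed level of 14 immediate early genes (Fos, Egr1 and the like, which are switched on within minutes of stimulation) was 1940 CPM in it and 815 to 980 CPM in the other 5 silica lungs of 1 day. In the 1-day air lungs that sum was 1010 to 1160 CPM. The part of immediate early genes in the ligand values of this sample was not tested. Without it the 1-day log2 fold changes were 0.23 for Areg and 0.13 for Hbegf, neither of them called.

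Hbegf codes for heparin-binding EGF-like growth factor, which takes part in wound closure by epithelium. Its 6-month levels were 11.1, 10.1, 8.3, 11.1 and 9.32 CPM in silica lungs and 8.26 and 7.29 CPM in air lungs. These groups did not overlap, by a margin of silica sample 33 over the higher air sample that was small against the spread, and the log2 fold change of 0.39 ± 0.17 was not called (edgeR adjusted p = 0.155). At 1 day the log2 fold change was 0.22 ± 0.1 (edgeR adjusted p = 0.192), with 10.6, 11.3 and 14.9 CPM as lowest, median and highest in silica lungs and 10.7, 10.4, 9.52 and 9.88 CPM in air lungs.

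Tgfa, which codes for transforming growth factor alpha, was the 1 gene of the 10 with a negative log2 fold change at 6 months. Silica lungs had 19.9, 21.7, 15.1, 22.7 and 18.8 CPM, and air lungs had 31.5 and 21.7 CPM. The groups overlapped, and 1 of the 2 air samples, that of libraries 19 and 24, stood above all others. The log2 fold change was -0.40 ± 0.2 (edgeR adjusted p = 0.197), and it was -0.1 without that sample. At 1 day silica lungs had 19.4, 21.2 and 25.3 CPM (lowest, median, highest) and air lungs had 20.9, 22.1, 14.5 and 19.1 CPM, a log2 fold change of 0.17 (edgeR adjusted p = 0.348).

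Of the other genes of the EGF family, 8 of 10 listed ligands and receptors passed the filter, and 1 rose at each time. This was Nrg2, a neuregulin that binds ErbB3 and ErbB4, with a log2 fold change of 0.30 ± 0.09 at 1 day and 1.15 ± 0.29 at 6 months (edgeR adjusted p = 0.0394 and 0.0298). From 1 day to 6 months Nrg2 fell in air lungs (-0.73 ± 0.21, edgeR adjusted p = 0.00952) and was not called in silica lungs. Egfr itself averaged 30.2 CPM in silica lungs of 6 months and 18.8 CPM in air lungs of 6 months, with ranges of 20.5 to 37.6 and 18.4 to 19.2 CPM, and was not called (log2 fold change 0.71 ± 0.25, edgeR adjusted p = 0.0846). At 1 day it averaged 31.7 CPM in silica lungs and 32.6 CPM in air lungs. The silica effect on Egfr at 6 months minus that at 1 day was called (0.72 ± 0.23, edgeR adjusted p = 0.0278). Over that time Egfr fell in air lungs (-0.79 ± 0.19, edgeR adjusted p = 0.00362) and was not called in silica lungs (-0.07 ± 0.13, edgeR adjusted p = 0.734). The ligand gene Epgn had no count in any of the 17 samples. Beside the silica against air counts of this and each later list stand the shares over all tested genes. These were 11.7% called at 1 day (7.61% higher and 4.07% lower) and 19.6% at 6 months (9.52% higher and 10.1% lower).

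Of 9 genes listed for the release and trafficking of EGFR ligands, 3 rose and 1 fell (Cd9) at 1 day. At 6 months 5 of them rose and 0 fell. Their median log2 fold change was 0.15 at 1 day and 0.53 at 6 months. Rhbdl2, a rhomboid protease of the membrane, averaged 4.3 CPM (3.42 to 4.89) in silica lungs and 1.0 CPM (0.667 to 1.39) in air lungs at 1 day, and 6.04 CPM (3.32 to 9.61) in silica lungs and 0.567 CPM (0.479 to 0.654) in air lungs at 6 months. Its log2 fold changes were 2.10 ± 0.21 and 3.42 ± 0.49 (edgeR adjusted p = 2.58e-05 and 0.00715). Rhbdf2, a rhomboid-like partner that carries Adam17 to the cell surface, rose by 0.45 ± 0.07 at 1 day and 1.02 ± 0.17 at 6 months on the log2 scale (edgeR adjusted p = 0.000924 and 0.00919). Adam17 was called at 6 months (0.55 ± 0.14, edgeR adjusted p = 0.0346), where it averaged 245 CPM in silica lungs and 170 CPM in air lungs, and was not called at 1 day (0.10 ± 0.04, edgeR adjusted p = 0.155).

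Among 17 genes that dampen EGFR signalling or follow the MAP kinase pathway below it, 3 rose and 1 fell at 1 day, and 5 rose and 0 fell at 6 months. The median log2 fold change was 0.01 at 1 day and 0.28 at 6 months. Phlda1, a known target of that pathway, rose at both times (0.32 ± 0.08 and 0.95 ± 0.13, edgeR adjusted p = 0.0222 and 0.00696). Errfi1, which codes for an inhibitor that binds EGFR, fell at 1 day (-0.45 ± 0.11, edgeR adjusted p = 0.0226), and Lrig1, a membrane protein that promotes loss of EGFR, rose at 6 months (0.70 ± 0.13, edgeR adjusted p = 0.011). Within air lungs, 6 months against 1 day, Lrig1 fell (-0.70 ± 0.11, edgeR adjusted p = 0.000201). Of the 17 genes, 2 rose and 7 fell within air lungs, beside 41.5% of all tested genes called. Within silica lungs 1 rose and 2 fell, beside 9.65%. Of 14 immediate early genes, Egr2 was the 1 called at 6 months (0.90 ± 0.16, edgeR adjusted p = 0.0101), and 0 of 13 tested were called by edgeR at 1 day, when none had an unadjusted p under 0.05 with edgeR and 1 did with DESeq2, which called 0 too.

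**Figure D2:**
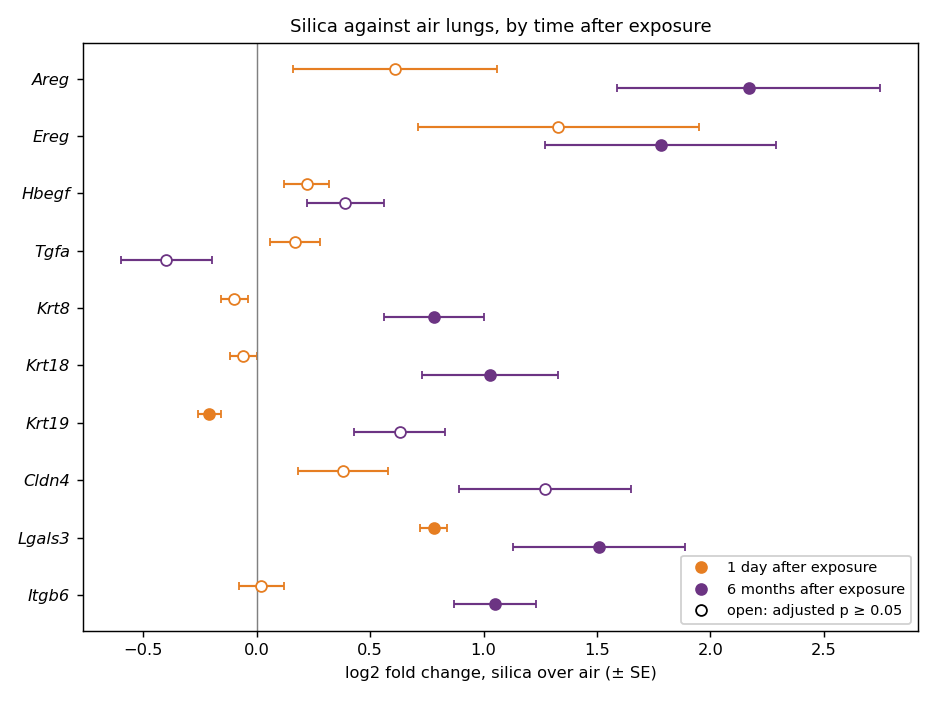
Log2 fold changes of silica over air lungs with their standard errors for the 10 genes, at 1 day (orange) and 6 months (purple); filled points have an edgeR adjusted p under 0.05. At 1 day only Lgals3 (0.78) and Krt19 (-0.21) are filled, and at 6 months Areg, Ereg, Krt8, Krt18, Lgals3 and Itgb6 are.

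Krt8 and Krt18 code for the paired type II and type I keratins of simple epithelium, which form filaments together. For Krt8, silica lungs of 6 months had 124, 139, 211, 144 and 161 CPM, and air lungs of 6 months had 82.6 and 102 CPM. For Krt18, silica lungs of 6 months had 34, 37.2, 69.6, 42.6 and 52.8 CPM, and air lungs of 6 months had 20.9 and 26.1 CPM. All 5 silica samples were above both air samples for each gene, and sample 33 was the highest for both. The log2 fold changes were 0.78 ± 0.22 for Krt8 and 1.03 ± 0.3 for Krt18 (n = 5 and 2, edgeR adjusted p = 0.0458 and 0.0475). At 1 day neither was called: Krt8 had 127, 140 and 160 CPM (lowest, median, highest) in silica lungs and 168, 144, 147 and 143 CPM in air lungs, and Krt18 had 34.8, 39.4 and 41.9 CPM in silica lungs and 43.7, 37.6, 39.9 and 41.3 CPM in air lungs. The estimated count of Krt18 was not whole in 9 of 22 libraries, as with 680.94 in air library 04 of 1 day. Some of its reads were thus shared with other transcripts, and its level is uncertain to that extent. The same holds for Itgb6 in 4 libraries and for Cldn4 in 1 (65.061 in air library 05 of 1 day).

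The 2 genes lie close together on chromosome 7 of the GRCr8 assembly and moved together, so their promoters are given side by side. The first runs from chr7:135010340-135010589 on the minus strand and the second from chr7:135035918-135036167 on the plus strand. That of Krt18 held an NF-kB pattern at position -69, in capitals; that of Krt8 held none of the 4 motifs before the start and an AP-1 pattern, TGACTCA, at position 14 after it, outside the stretch shown.

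Krt8: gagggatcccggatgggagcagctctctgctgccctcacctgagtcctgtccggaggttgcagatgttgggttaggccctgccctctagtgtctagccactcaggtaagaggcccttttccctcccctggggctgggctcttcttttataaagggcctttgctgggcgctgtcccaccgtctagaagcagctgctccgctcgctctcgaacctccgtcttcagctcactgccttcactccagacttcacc

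Krt18: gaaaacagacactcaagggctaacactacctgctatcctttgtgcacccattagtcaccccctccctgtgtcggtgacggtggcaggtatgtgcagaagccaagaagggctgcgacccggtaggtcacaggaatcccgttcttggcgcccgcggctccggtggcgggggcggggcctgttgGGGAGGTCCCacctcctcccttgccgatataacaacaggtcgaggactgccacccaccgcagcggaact

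Krt19 codes for a small type I keratin of simple epithelium, and it fell at 1 day. Silica lungs of 1 day had 201, 210 and 233 CPM (lowest, median, highest), and air lungs of 1 day had 262, 264, 243 and 222 CPM. The ranges overlapped by 1 sample on each side, and the log2 fold change was -0.21 ± 0.05 (n = 6 and 4, edgeR adjusted p = 0.0227). It was not called without the air sample of libraries 02 and 07 (edgeR adjusted p = 0.0635) or with all 4 groups in 1 fit (0.347). At 6 months Krt19 had 182, 216, 294, 218 and 258 CPM in silica lungs and 148 and 159 CPM in air lungs, with no overlap, and a log2 fold change of 0.63 that was just outside the threshold (edgeR adjusted p = 0.0584). Krt7, a further keratin of simple epithelium, also fell at 1 day (-0.30 ± 0.05, edgeR adjusted p = 0.0012) and was not called at 6 months (0.53 ± 0.21, edgeR adjusted p = 0.112).

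Cldn4 codes for a tight junction protein that rises in injured alveolar epithelium in mouse. It had 6.64, 5.12, 9.73, 7.88 and 11.5 CPM in silica lungs of 6 months and 2.45 and 4.39 CPM in air lungs of 6 months. The groups did not overlap, and the log2 fold change of 1.27 was not called (edgeR adjusted p = 0.0539). At 1 day it had 4.59, 6.66 and 8.57 CPM (lowest, median, highest) in silica lungs and 6.7, 4.24, 4.8 and 4.79 CPM in air lungs, a log2 fold change of 0.38 (edgeR adjusted p = 0.275).

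Lgals3, which codes for the galactoside-binding lectin galectin-3, was the 1 gene of the 10 that rose at both times. At 1 day it had 372, 422 and 462 CPM (lowest, median, highest) in silica lungs and 243, 265, 250 and 225 CPM in air lungs. Every silica sample of 1 day was above every air sample, and the log2 fold change was 0.78 ± 0.06 (n = 6 and 4, edgeR adjusted p = 3.17e-06). At 6 months it had 361, 581, 1030, 716 and 655 CPM in silica lungs and 204 and 275 CPM in air lungs. Again no sample overlapped, and the log2 fold change was 1.51 ± 0.38 (n = 5 and 2, edgeR adjusted p = 0.032). The silica lungs of 6 months were far more spread than those of 1 day (SD 243 and 29.9 CPM).

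Galectin-3 is abundant in macrophages, and macrophage markers moved in the same comparisons. Of 10 such markers tested at 1 day 6 rose, and of 11 at 6 months 6 rose and 1 fell; their summed levels were 1740 to 2020 CPM in silica lungs and 1200 to 1430 CPM in air lungs at 1 day, and 1650 to 3330 CPM in silica lungs and 1570 to 1770 CPM in air lungs at 6 months. Cd68, a lysosomal protein of macrophages, rose by 0.95 ± 0.05 and 1.78 ± 0.39 on the log2 scale (edgeR adjusted p = 4.08e-08 and 0.0193), and Itgax fell at 6 months (-2.09 ± 0.33, edgeR adjusted p = 0.0088), though its counts were split between transcripts and its level is uncertain. Neutrophil markers rose as well, 6 of 9 at each time, with sums of 1140 to 1550 CPM in silica lungs and 336 to 412 CPM in air lungs at 1 day and of 1170 to 3250 CPM in silica lungs and 186 to 240 CPM in air lungs at 6 months. Marco had no count in 2 of 17 samples, and no other marker of these 2 lists was at 0 in any sample. The part of these cells in the Lgals3 values was not tested. In whole blood Lgals3 ranged from 28.2 to 123 CPM over 24 samples, without TMM scaling. Of 6 tested genes on a list of other galectins and Lgals3bp, Lgals3bp itself, whose product binds galectin-3 and is no galectin, was the 1 that rose at 1 day (0.34 ± 0.06, edgeR adjusted p = 0.0016) and Lgals8, a galectin, the 1 that rose at 6 months (0.40 ± 0.11, edgeR adjusted p = 0.0398).

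Itgb6 had the smallest adjusted p of the 10 genes at 6 months. Silica lungs of 6 months had 90.4, 127, 94.2, 130 and 113 CPM, and air lungs of 6 months had 52.6 and 57.0 CPM. The lowest silica sample was well above the higher air sample, and the log2 fold change was 1.05 ± 0.18 (n = 5 and 2, edgeR adjusted p = 0.0106). At 1 day the silica lungs had 87.9, 96.8 and 128 CPM (lowest, median, highest) and the air lungs had 110, 103, 88.5 and 96.5 CPM, and the log2 fold change was 0.02 (edgeR adjusted p = 0.929). Its 250 promoter bases (chr3:65530334-65530583, minus strand) are shown as a contrast with those above: none of the 4 motifs was found in them.

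Itgb6: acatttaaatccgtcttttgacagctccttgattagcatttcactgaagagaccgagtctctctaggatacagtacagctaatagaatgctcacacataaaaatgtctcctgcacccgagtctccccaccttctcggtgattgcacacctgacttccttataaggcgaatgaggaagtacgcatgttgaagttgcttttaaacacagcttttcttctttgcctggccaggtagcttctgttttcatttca

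The 4 motifs were AP-1 (TGANTCA), the cyclic AMP response element (TGACGTCA), NF-kB (GGGA and CC with 4 bases between) and TEAD (GGAATG), searched on both strands from 250 bases before to 50 after the start, and none of these patterns contains another. Among 33469 rat promoters of that length, 7.33% held AP-1, 1.83% the cyclic AMP element, 19.3% NF-kB and 14.2% TEAD. A sequence was found for 6 of the 10 genes; of the 2 not yet named, Tgfa held an NF-kB pattern at position -55 and Hbegf held none of the 4. A match is a likeness of letters and does not show that a factor binds there.

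The integrin partners of Itgb6 and the genes of TGF-β activation were split in direction. Of 14 such genes, 4 rose and 1 fell at 1 day, and 3 rose and 1 fell at 6 months, beside 11.7% and 19.6% of all tested genes called. Itgav, the α subunit that pairs with Itgb6, was not called at either time (0.11 ± 0.05 and -0.29 ± 0.24, edgeR adjusted p = 0.209 and 0.434). Itgb8, the β subunit of the other integrin known for activating TGF-β, rose at both times, by 1.2 ± 0.08 and 2.12 ± 0.34 on the log2 scale (edgeR adjusted p = 7.07e-07 and 0.00875). Tgfb1, which codes for the ligand TGF-β1, fell at 6 months (-0.63 ± 0.14, edgeR adjusted p = 0.0216), with 76.1 CPM in silica lungs and 120 CPM in air lungs on average. From 1 day to 6 months it rose in both, by 0.33 in silica lungs and 1.16 in air lungs on the log2 scale (edgeR adjusted p = 0.0256 and 4.36e-06).

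Other genes known from transitional or injured alveolar epithelium numbered 24 (25 table rows). At 1 day 4 rose and 3 fell, and at 6 months 6 rose and 0 fell, with a median log2 fold change of 0.06 and 0.49. F3, tissue factor of the clotting cascade, rose at 6 months to a mean of 165 CPM in silica lungs, against 46.3 CPM in air lungs (1.87 ± 0.26, edgeR adjusted p = 0.00698). Lamb3, a chain of a basement membrane laminin of epithelium, rose by 0.89 ± 0.17 (edgeR adjusted p = 0.0141), and Plaur, the urokinase receptor, by 1.35 ± 0.27 (edgeR adjusted p = 0.0156). In air lungs Lamb3 fell from 1 day to 6 months (-0.60 ± 0.12, edgeR adjusted p = 0.00084). Of the 25 rows, 3 rose and 10 fell in air lungs over that time. Over all tested genes 41.5% were called within air lungs, 22.5% higher and 19.1% lower. In silica lungs 6 of the rows rose, F3 and Plaur among them, and 1 fell, beside 9.65% of all tested genes called. At 1 day Nupr1, a stress-induced gene, rose (0.69 ± 0.11, edgeR adjusted p = 0.000954), while Hopx, a type 1 cell gene, fell (-0.36 ± 0.06, edgeR adjusted p = 0.00129). Counts of Hopx were split between transcripts in the authors' tables, and its level is uncertain.

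The silica effect at 6 months minus that at 1 day was positive and called for 4 of the 10 genes. These were Krt8 (0.86 ± 0.2), Krt18 (1.06 ± 0.26), Krt19 (0.82 ± 0.17) and Itgb6 (1.00 ± 0.19 on the log2 scale). Their edgeR adjusted p were 0.00569, 0.00727, 0.00311 and 0.00202. None of the 10 had a negative difference that was called. Of all tested genes 26.8% were called, 12.2% with a positive difference and 14.6% with a negative one. A negative difference can be a smaller rise or a deeper fall. Within silica lungs, 6 months against 1 day, none of these 4 was called, with log2 fold changes of 0.13 to 0.28, and Lgals3 was the 1 of the 10 that rose (0.67, edgeR adjusted p = 0.0287), beside 9.65% of tested genes that were called, 4.44% higher and 5.21% lower. Within air lungs, 6 months against 1 day, these 4 fell and Tgfa rose, beside 41.5% of tested genes that were called, 19.1% lower and 22.5% higher. The falls in air lungs were -0.70 for Krt8, -0.79 for Krt18, -0.69 for Krt19 and -0.86 for Itgb6 (edgeR adjusted p = 0.00305, 0.00785, 0.00123 and 0.000603), and Tgfa had 0.47 (0.0448). The Tgfa value was 0.19 without the air sample of libraries 19 and 24 (edgeR adjusted p = 0.579), and its call was also lost without air sample 05 or 06 or silica sample 12 or 14 of 1 day, and with no filter on low counts (adjusted p of 0.0507 to 0.111). The levels of the 4 genes in silica lungs of 6 months overlapped those of both 1-day groups, and the 6-month air samples were below every 1-day sample. These comparisons share samples with one another, and the times were deposited as separate tables, so that time and table cannot be told apart. Without the air sample of libraries 19 and 24, Krt19 and Itgb6 were still called in the difference of effects (edgeR adjusted p = 0.0392 and 0.0262) and Krt8 and Krt18 were not (0.0752 and 0.0813), and within air lungs only Krt19 and Itgb6 were still called (0.0332 and 0.0172). The Lgals3 call within silica lungs was lost without any 1 of 6 of the samples, the largest adjusted p being 0.0644 without silica sample 15 of 1 day.

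**Figure D3:**
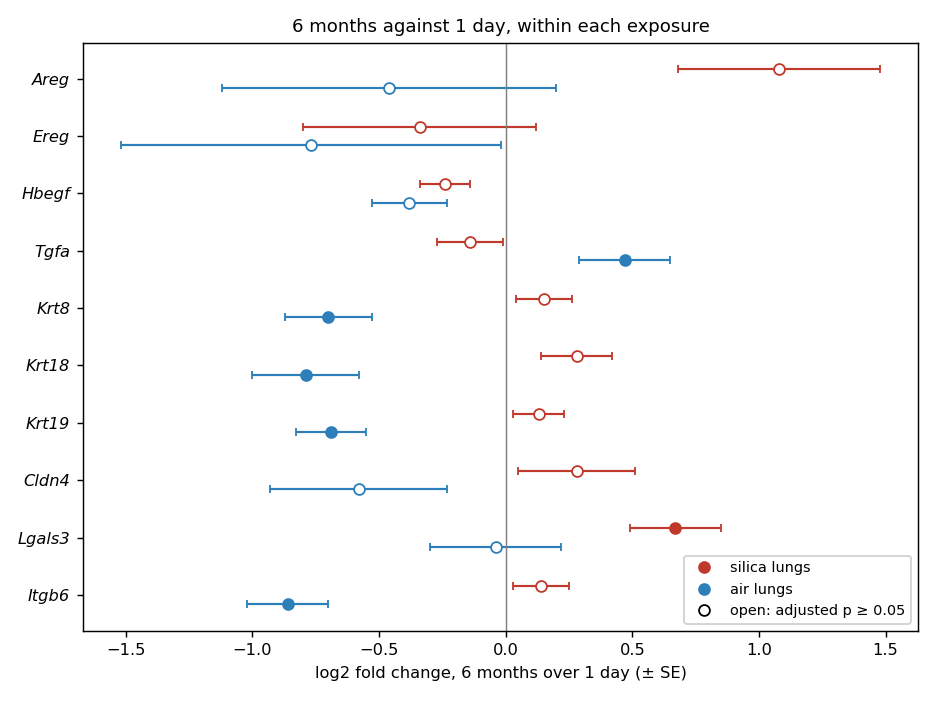
Log2 fold changes of 6 months over 1 day, with standard errors, within silica lungs (red) and within air lungs (blue); filled points have an edgeR adjusted p under 0.05. The filled points of Krt8, Krt18, Krt19 and Itgb6 are those of air lungs, at -0.69 to -0.86, while the silica points lie at 0.13 to 0.28.

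In order of group means, Krt8, Krt18 and Itgb6 were highest in silica lungs of 6 months and lowest in air lungs of 6 months, with the 1-day groups between; neighbours in that order overlapped in range except at the step down to the 6-month air lungs. Krt19 was highest in air lungs of 1 day and again lowest, without overlap, in air lungs of 6 months. For Lgals3 the order was silica at 6 months (669 ± 243 CPM), silica at 1 day (420 ± 29.9), air at 1 day (246 ± 16.6) and air at 6 months (240 ± 50.2; SD, n = 5, 6, 4 and 2), and the 1 step without overlap was that between silica and air at 1 day. The means of Areg, Ereg and Cldn4 were higher in both silica groups than in both air groups, with ranges that overlapped between all neighbours except, for Ereg, the 2 air groups. For Hbegf the 1 step without overlap was that from silica to air lungs of 6 months, and Tgfa had none.

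Some other genes of epithelium moved in the same comparisons. Of 13 tested genes of epithelial identity, such as the adhesion gene Cdh1 and the splicing factor Esrp1, 9 rose and 0 fell at 6 months (median 0.75), and 9 fell and 0 rose in air lungs at 6 months against 1 day (median -0.67). Their summed level was 2370 to 2770 CPM in silica lungs and 1760 to 1870 CPM in air lungs at 6 months, and 2550 to 2820 CPM in silica lungs and 2640 to 2760 CPM in air lungs at 1 day. Type 2 markers rose in 7 of 9 cases at 6 months and in 6 of 9 at 1 day (median 1.23 and 0.21). Type 1 markers rose in 1 of 9 at 6 months, which was Pdpn, and fell in 5 of 9 at 1 day (median 0.36 and -0.22). Within air lungs, 6 months against 1 day, 7 of 9 type 2 and 7 of 9 type 1 markers fell and 0 rose (median -0.59 and -0.75). Within silica lungs 3 of 9 type 2 markers rose and 3 of 9 type 1 markers fell. Over all tested genes 41.5% were called within air lungs and 9.65% within silica lungs. Among 7 endothelial markers, 0 rose and 1 fell at 6 months and 0 rose and 3 fell at 1 day. Of 6 mesothelial markers, a further source of simple keratins, Calb2 alone was called, and it fell at 6 months (-2.87 ± 0.59, edgeR adjusted p = 0.0161). Of 7 tested rows of ciliated cell markers, edgeR called 0 at either time (median 0.03 at 1 day and 0.57 at 6 months). Of 8 tested airway secretory and goblet markers, 2 rose at 1 day and 1 at 6 months, and 0 fell (median 1.25 and -0.13). The part of a changed share of epithelium in the 6-month values of the 10 genes was not tested.

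The 2 air samples of 6 months also stood apart in lymphocyte genes. Fischer 344 rats are known for a spontaneous leukaemia of large granular lymphocytes in later life, and 10 of 11 markers of natural killer cells and such lymphocytes were lower in silica than in air lungs at 6 months (median log2 fold change -2.34), with 0 called at 1 day by edgeR or DESeq2 (0 and 1 at an unadjusted p under 0.05). Their summed level was 402 to 1450 CPM in silica lungs and 3750 to 4620 CPM in air lungs at 6 months, and 272 to 885 CPM in silica lungs and 436 to 961 CPM in air lungs at 1 day; none of the 11 was at 0 in any sample. Eomes, a transcription factor of these cells, averaged 22.9 CPM in silica lungs and 302 CPM in air lungs. Of 7 T cell markers, 6 rose in silica lungs at 6 months and Cd8a, which natural killer cells of the rat also carry, was the 1 that fell; it averaged 93.4 CPM in silica lungs and 558 CPM in air lungs, and the list summed to 208 to 379 CPM in silica lungs and 539 to 728 CPM in air lungs. The part of these cells in the 6-month values of the 10 genes was not tested.

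**Figure D4:**
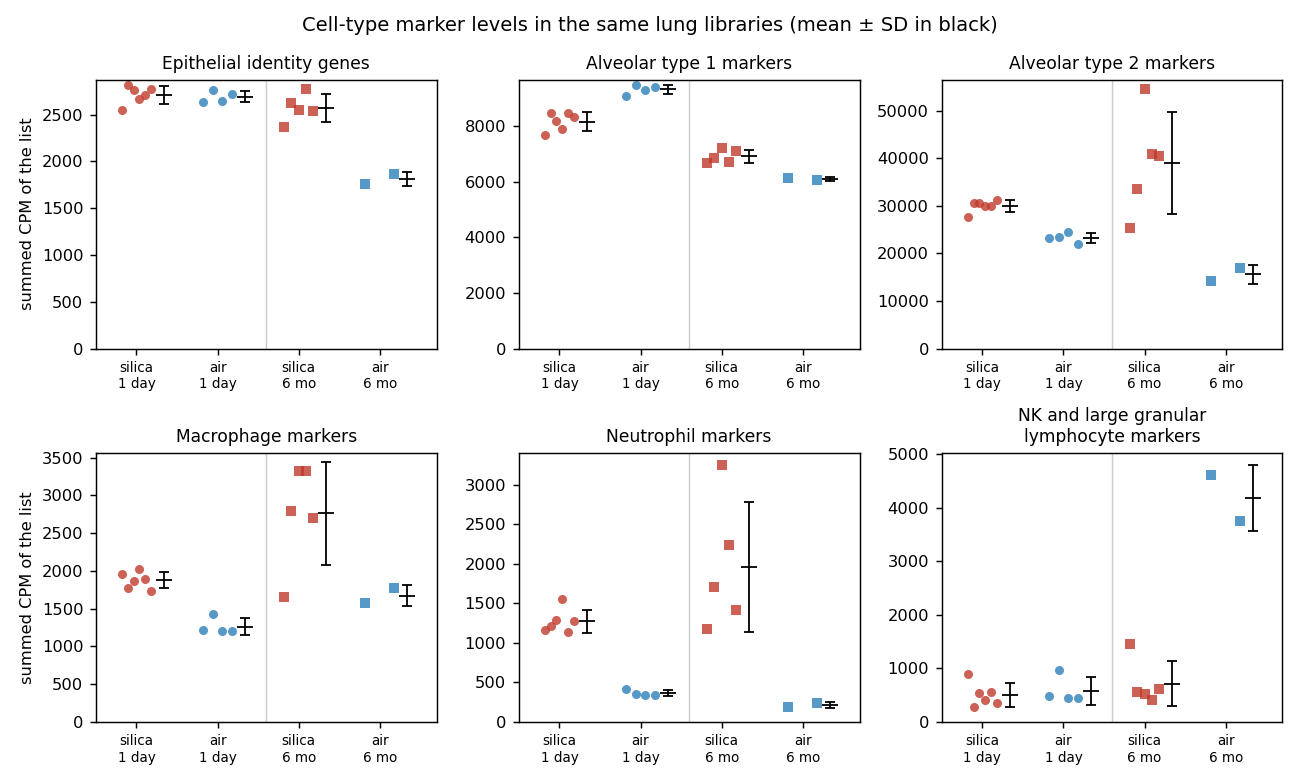
Summed CPM of 6 marker lists in the same samples, on linear axes from 0, with mean ± SD in black. The natural killer and large granular lymphocyte markers stand at 3750 to 4620 CPM in the 2 air samples of 6 months and at no more than 1450 CPM in the other samples, while epithelial identity genes stand at 1760 to 1870 CPM in those 2 air samples and at no less than 2370 CPM in the others.

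The silica lungs of 6 months differed among themselves. Sample 33 had the highest Krt8, Krt18, Krt19 and Lgals3, and also the lowest Ereg, Hbegf and Tgfa of the 5. It had the highest type 2 marker sum (54500 CPM, against 25400 to 40900 in the other 4) and the highest neutrophil marker sum. After the group means were taken out, log2 levels of Krt8 and Krt18 correlated with r = 0.942 over the 17 samples and those of Krt8 and Krt19 with r = 0.893, whereas Krt8 had r = -0.611 with Hbegf and 0.143 with Itgb6. Ereg and Hbegf had r = 0.779, and silica sample 10 is the high point of both. These are descriptions over samples that share libraries and scaling, and no test was made.

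The genes most like each of the 10 in log2 CPM over the 17 samples, group differences included, were Clic2 (r = 0.891) and Cept1 (0.849) for Areg, Egr2 (0.838) and Kcnj2 (0.821) for Ereg, Kcnj2 (0.873) and Rdh10 (0.831) for Hbegf, and Zc3h7a (0.901) and Taok3 (0.875) for Tgfa. Krt8 was most like Aldh2 (0.975) and Krt18 (0.969), and Krt18 was most like Hsd17b11 (0.988). For Krt19 they were Ager and Fbxo31 (0.95 each), and for Cldn4 Ankrd63 (0.903) and Fcgbp (0.898). Lgals3 was most like Npc2 (0.986) and Capg (0.985), and for Itgb6 Prepl had r = 0.945.

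In whole blood of the same study (24 samples, not tested, CPM without TMM scaling), Areg, Krt19 and Itgb6 had 0 counts in every sample. With 3 counts as the limit that a count of 0 allows, this is a level of at most 0.171 to 0.282 CPM by sample. Ereg had at most 1 count in any blood sample. Tgfa ranged from 0.655 to 9.66 CPM, Cldn4 from 0.419 to 3.3 CPM, and Hbegf, Krt8 and Krt18 reached no more than 0.723, 0.31 and 0.833 CPM.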

How the data were processed

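RNA was sequenced from whole lung and, with globin transcripts depleted, from whole blood, with stranded libraries of polyadenylated RNA per the labels' protocols. The authors deposited Salmon's estimated counts per gene, which are not scaled and need not be whole, in 1 table for each tissue and time; the submitters' processing notes name STAR 2.6.1d, Salmon 1.10.1 and the build Rnor_6.0. Every column matched a sample by name. Estimated counts were rounded.

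Each 2 libraries of a group were set against each other by a chi-square test of every gene whose mean count was 20 or more, and they were averaged where p was under 0.05 in less than 10% of the genes. The plan named all genes, which averages 1 pair. The form used here takes only genes with whole counts (tolerance 1e-06) in every lung library and averages 5; it and another form, all genes with a continuity correction, which averages 3, were computed in turn, and the form used was chosen after the pair shares and the fits of the other forms had been seen. Over all genes the 5 pairs differed in 9.54% to 11.5% of genes and every other pair in at least 22.8%.

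Silica was tested against air at each time, and times against each other in 1 fit of the 4 lung groups, with edgeR 4.0.16 in R 4.3.3 (filterByExpr, minimum count 10 and total 15; TMM; robust quasi-likelihood F test; Benjamini-Hochberg over all genes). The procedure was tested on simulated data. Alternatives were RLE factors, no filter, DESeq2 1.42.0, unmerged libraries, 1 fit for all groups, the 2 other pair forms and each sample left out. Named genes are the 10 members, up to 4 genes with the smallest adjusted p of each list, and Egfr, Itgav, Krt7 and Adam17. Cd68, Itgax and Eomes are among those by that rule. Epgn, Cdh1, Marco, Cd8a, Pdpn and Krt5 were chosen after their values were seen. Of these, the rule also names Pdpn at 6 months, Marco within silica lungs over time and Cd8a within air lungs over time. A few genes that the rule names are not reported here. The members and lists were chosen with earlier results of these data known. Promoter sequences are RefSeq's (GRCr8). CPM floors use 3 counts, 0.122 to 0.224 CPM in lung, and cover counting error only.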

Additional observations from a re-analysis of the deposited data

Results flagged for a closer look

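In silica lungs of 1 day, Ereg at 11 CPM and Hbegf at 14.9 CPM in sample 10 lay far from the other 5 samples of the group, by Dixon's criterion. Itgb6 at 128 CPM in silica sample 12 of 1 day and Krt8 at 168 CPM in the air sample of libraries 02 and 07 of 1 day did so too. These are 4 of 30 groups tested, where chance gives about 1 in 20.

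The silica effect differed between the times, by a test of the difference itself in edgeR, for Krt8 (0.86 on the log2 scale, adjusted p = 0.00569), Krt18 (1.06, 0.00727), Krt19 (0.82, 0.00311) and Itgb6 (1.00, 0.00202). In each case the log2 fold change of silica over air was the higher at 6 months. That of Krt19 was negative at 1 day (-0.21) and was not called at 6 months (0.63, edgeR adjusted p = 0.0584). From 1 day to 6 months none of these genes was called within silica lungs (0.13 to 0.28). All of them fell within air lungs over that time (-0.69 to -0.86), where the 6-month values rest on 2 samples.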

How the results depend on the processing

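At 1 day, with all 4 lung groups in 1 fit, 594 genes and 1 member were called, against 1836 and 2. At 6 months, where 3190 genes and 6 members were called, the numbers were 6396 genes and 10 members with each library separate, the same 6396 and 10 with the pair test over all genes, 5491 genes and 8 members with its continuity correction, and 6501 genes with all 4 groups in 1 fit. For the difference of effects, the continuity-corrected form called 7 members, against 4. Within silica lungs, 6 months against 1 day, DESeq2 called 2603 genes, against 1598, and 0 members were called with each library separate or with the pair test over all genes. The 2 other pair forms were added after seeing the data. Itgb6 at 1 day, 0.02, was -0.02 with each library separate and -0.01 in both other pair forms. The causes of these changes were not tested.

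With 1 sample left out at a time, the genes and members called ran from 1185 to 2240 and 1 to 2 at 1 day, from 57 to 4169 and 0 to 7 at 6 months, from 1641 to 5569 and 2 to 5 for the difference of effects, from 766 to 3000 and 0 to 2 within silica lungs, and from 3644 to 8452 and 2 to 6 within air lungs. Signs changed only for values near 0 or with a wide error: Itgb6 at 1 day (-0.07 to 0.06), Ereg within silica lungs (-0.49 to 0.41, positive without sample 10 of 1 day), and Areg (-1.38 to 0.11) and Lgals3 (-0.3 to 0.17) within air lungs. Of 320 other member values under the settings that keep all samples, 283 kept direction and call, 29 came to be called, 5 ceased to be and 3 changed sign.

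No paired analysis was possible because the silica and air lungs share no replicate numbers. The main limits are the 2 air samples at 6 months, low counts of Areg (7 to 87 in lung) and tables that coincide with time.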
